A study of Mus musculus with 12 samples.

Results

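Dio1 encodes type 1 iodothyronine deiodinase, a selenoenzyme of liver and kidney, and was measured by 1 probe of the 33012 on a mouse expression array. The gene was chosen by its difference between Hdac3-null and control liver at postnatal day 28 (P28), so its P28 values are given as a description with no test. The values at postnatal day 17 (P17) come from other pools of mice and are the ones tested. In Hdac3-null liver Dio1 was lower than in control liver at both ages: 2.37-fold at P17 and 3.36-fold at P28 (geometric means of 2 pools per group). At P28 it was 2.16-fold lower in the first pools and 5.23-fold in the second, so the larger mean rested on the second pools. The P17 difference did not pass a test adjusted over all probes.

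Deiodinases remove iodine atoms from thyroid hormones. The type 1 enzyme converts the prohormone thyroxine to the active hormone triiodothyronine and also clears inactive iodothyronines. Its transcript is itself raised by triiodothyronine through thyroid hormone receptors, and in liver it is widely read as a marker of hormone action. Receptors without hormone bind the corepressors NCoR and SMRT, which bring the histone deacetylase HDAC3 to target genes.

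Liver RNA was compared in 4 groups of mice, all labelled as C57B/6 strain where the labels name one: P17 Hdac3-null, P17 control, P28 Hdac3-null and P28 control. Control mice were Hdac3 wild-type or heterozygous and expressed Cre recombinase from the albumin promoter (Albumin-Cre), which is active in hepatocytes. By the labels the first control pools held wild-type mice and the second P28 control pool wild-type or heterozygous mice. For the second P17 control pool the sample's label states only that it is control liver, and its genotype rests on the description of the series. The labels call the other groups Hdac3-null livers and give no further allele. Other liver cell types are part of the same RNA, and whether they had lost Hdac3 was not checked here. Each group held 2 pools of RNA from 5 mice each. The first pool was run in duplicate on separate chip lots of a single-colour ABI1700 array and the second pool once, which gave 3 arrays per group and 12 in all. Duplicate arrays were averaged, so n = 2 pools per group.

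Duplicate arrays of a first pool correlated with r = 0.959 to 0.977 over probes above the detection level. Between the pools of a group, arrays correlated with r = 0.931 to 0.953. The number of arrays limits the precision of all values. The deposited values fall into 3 sets of 4 arrays that share 1 highest value each. They are the P17 first pools, the P28 first pools, and the second pools of all groups. These sets are called run sets here, although no sample title names a run. Whether their arrays were run together or only normalized together before deposit cannot be told apart. Array medians were 405.0 to 411.0 in the P17 first pools, 489.8 to 491.8 in the P28 first pools and 854.5 to 862.7 in the second pools. Each comparison of Hdac3-null with control liver within a pool number therefore lies within 1 run set, and p-values reflect differences among pools, which may be in part technical. Hdac3 itself was matched to no probe, so the targeted gene was not analysed here.

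The mouse Dio1 gene spans 15704 bases on the minus strand of chromosome 4, from 107291465 to 107307168 in GRCm38.p6 (RefSeq). The probe carries the RefSeq transcript NM_007860, which the RefSeq table pairs with Dio1 alone. The 250 bases before the annotated start of the gene, chr4:107307169-107307418 on the minus strand, are shown because Dio1 is described here as a gene read out by a hormone receptor. The sequence is from RefSeq (GRCm38.p6), runs 5′ to 3′, and has the 50 bases nearest the start in capitals.
Dio1 promoter: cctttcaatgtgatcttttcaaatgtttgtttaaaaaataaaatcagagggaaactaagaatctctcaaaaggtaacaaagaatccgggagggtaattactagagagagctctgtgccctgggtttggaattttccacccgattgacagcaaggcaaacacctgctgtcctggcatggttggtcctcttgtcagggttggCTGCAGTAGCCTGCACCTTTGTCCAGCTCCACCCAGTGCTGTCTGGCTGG

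The hexamer AGGTCA, to which nuclear receptors of this class bind, was searched on both strands. It was not in these 250 bases, and 4607 of 32851 mouse promoter windows of the same length held it (14.0%). The direct repeat of AGGTCA with 4 bases between, the classic thyroid hormone response element, was found in 5 windows (0.015%), and that of Dio1 was not among them. These counts say only whether these letters stand in this window.

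At P17, Dio1 had deposited intensities of 43249.8 and 43401 in the duplicate arrays of the first Hdac3-null pool and 50254 in the second. In P17 control liver it had 114106.9 and 104992.5 in the duplicates of the first pool and 112482 in the second. All 3 P17 Hdac3-null arrays lay below all 3 P17 control arrays. At P28, the Hdac3-null arrays read 26770.9 and 28173 for the first pool and 25678 for the second. The P28 control arrays read 55694 and 65552 for the first pool and 135018.5 for the second. The groups did not overlap at P28 either, and the second control pool stood apart from the first in deposited units. On normalized values, every Hdac3-null array lay under every control array for 8.61% of probes at P17 and 8.64% at P28. Dio1 was far above the level of a typical probe on every array, from 29.9 times the array median in the second P28 Hdac3-null pool to 279 times in a P17 control array.

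**Figure D1:**
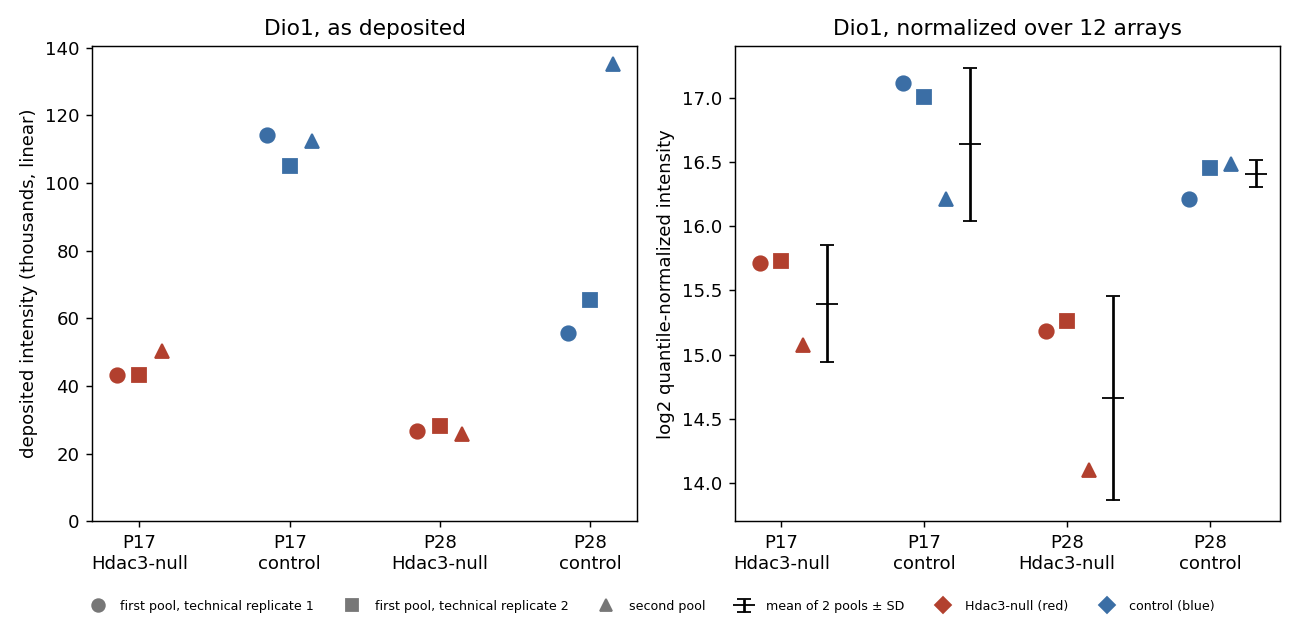
Dio1 on each of 12 arrays, as deposited intensity (left, linear axis from 0) and as log2 quantile-normalized intensity (right). Red marks are Hdac3-null and blue marks control liver; circles and squares are the duplicate arrays of the first pool, triangles the second pool, and black bars the mean ± SD of 2 pools. All 6 Hdac3-null arrays lie between 14.10 and 15.73, below the 6 control arrays at 16.21 to 17.12.

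After quantile normalization over the 12 arrays, Dio1 was 15.71 and 15.73 log2 units in the first P17 Hdac3-null pool and 15.07 in the second, against 17.12 and 17.00 in the first P17 control pool and 16.22 in the second. At P28 it was 15.18 and 15.26 in the first Hdac3-null pool and 14.10 in the second, against 16.21 and 16.46 in the first control pool and 16.49 in the second. The highest Hdac3-null array (15.73, at P17) thus stayed under the lowest control array (16.21, at P28). On deposited values, with no further normalization, the 6 Hdac3-null arrays ran from 25678 to 50254 and the 6 control arrays from 55694 to 135018.5. Again every Hdac3-null array lay below every control array. On normalized values 1.09% of 30459 probes had this order at both ages together, and 411 probes had the opposite order. The share was not counted on deposited values.

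Duplicate arrays of 1 pool differed by less than the genotypes did. Technical replicate 2 minus 1 was 0.02 in P17 Hdac3-null, -0.12 in P17 control, 0.08 in P28 Hdac3-null and 0.25 in P28 control liver on the log2 scale. Pools of a group differed more: the second pool minus the first was -0.65, -0.85, -1.12 and 0.15 in the same order of groups. The second pools were thus lower than the first in 3 of 4 groups after normalization. The deposited values of the second pools belong to the run set with the highest medians, so this gap carries the step between run sets as well as that between pools, and the 2 cannot be told apart.

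The group means were 15.40 ± 0.46 log2 units in P17 Hdac3-null and 16.64 ± 0.60 in P17 control liver, and 14.66 ± 0.79 in P28 Hdac3-null and 16.41 ± 0.11 in P28 control liver (SD, n = 2 pools each). In order from low to high they were P28 Hdac3-null, P17 Hdac3-null, P28 control and P17 control. The arrays of P28 and P17 Hdac3-null liver overlapped, and so did those of P28 and P17 control liver. Between P17 Hdac3-null and P28 control liver no array overlapped. That comparison crosses genotype, age and, for the first pools, run sets, and its share over all probes was not counted. In bulk liver RNA, fewer cells of a type and less RNA per cell cannot be told apart.

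Whether Dio1 differed in the P17 pools was tested in limma on the 4 pools of P17 alone, so that the P28 pools entered neither the difference nor its error directly. They entered through the normalization, which ran over all 12 arrays; from the deposited values the P17 difference was -1.25, with a limma adjusted p of 1. Hdac3-null minus control was -1.24 on the log2 scale (SE 0.45, 95% confidence interval -2.38 to -0.11), and the adjusted p was 0.897 over 33002 probes (limma, Benjamini-Hochberg, n = 2 pools per group). The interval is not adjusted for the number of probes. No probe was called in this fit, while 1789 had an unadjusted p under 0.05. A replicate block by pool sets each Hdac3-null pool against the control pool of its own run set. With it the SE was 0.25, the interval -1.94 to -0.54 and the adjusted p 0.504 over 32603 probes (limma). That fit had only 1 residual degree of freedom, against 2 without the block. Both pools showed the direction, with -1.34 for the first pools and -1.14 for the second. An exact two-sided permutation test of the 4 P17 pools gave p = 0.333, the smallest its 6 assignments allow, so this design cannot pass 0.05 by permutation.

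Among all probes tested in the 8 pools, 15 of 33010 were called at P17 (0.0454%; 13 higher and 2 lower in Hdac3-null liver). Every P17 Hdac3-null array lay under every P17 control array for 8.61% of 31594 probes, so the lack of overlap seen for Dio1 was shared with 2720 probes. In size, 485 of 33010 probes had a P17 difference as low as that of Dio1 or lower (1.47%). The median difference of all probes at P17 was -0.01.

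At P28 the mean difference, Hdac3-null minus control, was -1.75 on the log2 scale, with -1.11 in the first pools and -2.39 in the second. As folds these were 2.16-fold and 5.23-fold lower, so the second pools carried more of the mean. Without the second Hdac3-null pool the P28 difference was -1.19, close to the -1.24 of P17. Dio1 was chosen on this contrast, and its place among all probes is given only to describe it: 400 of 33010 probes were as low or lower (1.21%), and 131 were called in limma (0.397%; 83 higher and 48 lower). Every P28 Hdac3-null array lay under every P28 control array for 8.64% of 31713 probes. At both ages together this held for 1.09% of 30459 probes, 333 in number, and the opposite order for 411.

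**Figure D2:**
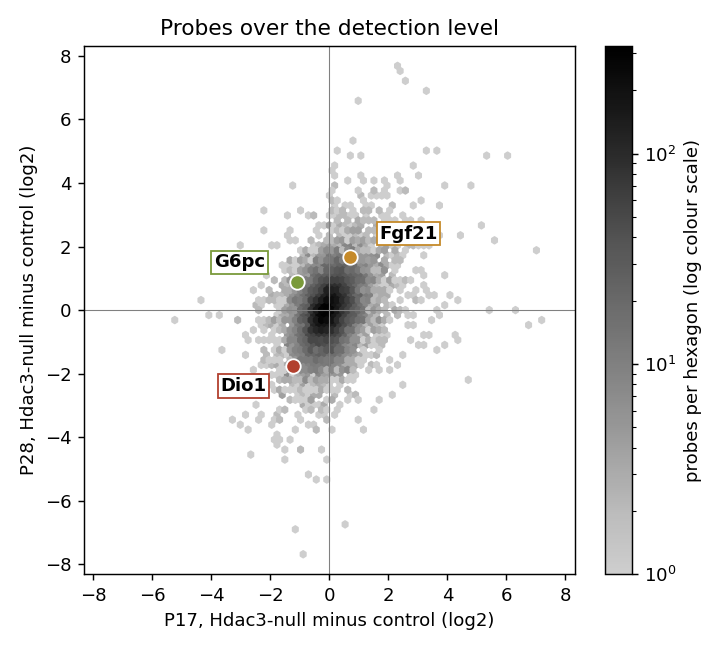
Hdac3-null minus control at P17 (horizontal axis) and P28 (vertical axis), in log2 normalized intensity, for probes over the detection level on every array of at least 1 group; grey hexagons are shaded by the number of probes on a log scale. Dio1 lies in the lower left at -1.24 and -1.75, G6pc at -1.10 and 0.89, and Fgf21 at 0.71 and 1.68.

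Dio1 was lower in Hdac3-null liver in each of the 4 pool comparisons. Of 32120 probes with a value in all 4, 3847 were lower in each (11.98%). Over the detection level, where Dio1 lies, 2809 of 15291 probes were (18.37%). The smallest of the 4 differences of Dio1 was -1.11, and 74 probes were lower by at least that much in all 4 (0.23%). All 74 were over the detection level, where they made up 0.48% of the probes. Dio1 was the only probe with a gene symbol among the 74. Only 311 of the 33012 probes were matched to a symbol, so most of the 74 could not carry a name. Since the P28 contrast chose Dio1, these counts describe where it stands and test nothing.

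The pool differences were nearly the same without further normalization. From the deposited intensities they were -1.34 and -1.16 at P17 and -1.14 and -2.39 at P28. By single arrays after normalization, technical replicate 1 gave -1.41 at P17 and -1.03 at P28, and technical replicate 2 gave -1.28 and -1.20. The P28 difference of the first pools was thus near that of the P17 pools for both technical replicates, and only the second P28 pools differed by more.

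**Figure D3:**
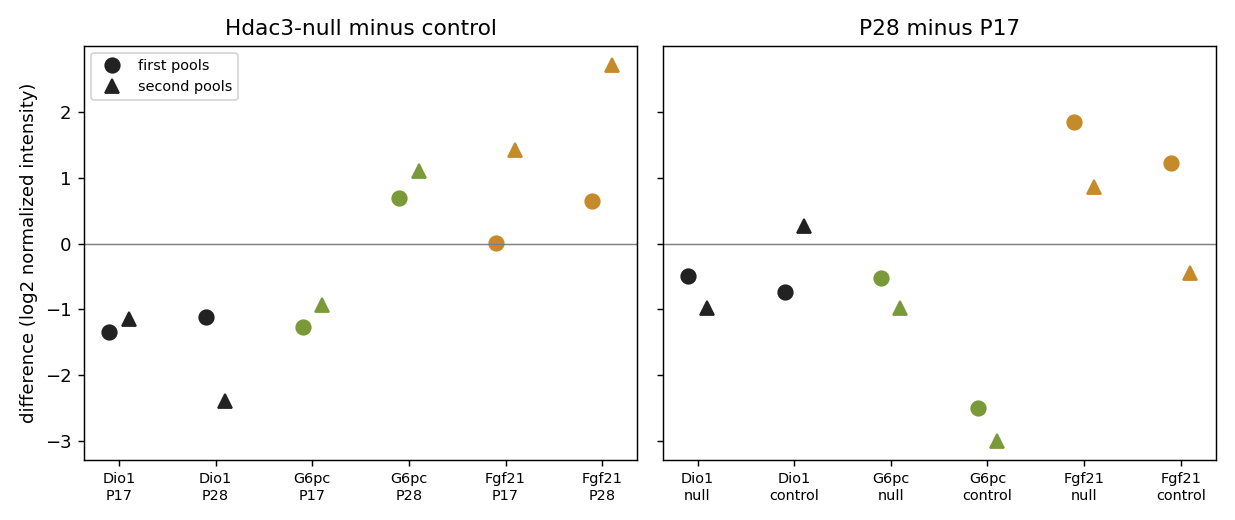
Differences in log2 normalized intensity within the first pools (circles) and the second pools (triangles) for Dio1, G6pc and Fgf21: Hdac3-null minus control at each age (left) and P28 minus P17 in each genotype (right). Dio1 is below 0 in all 4 genotype comparisons, while G6pc is at -1.27 and -0.93 at P17 and at 0.69 and 1.10 at P28.

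The mean differences of Dio1 between the ages were smaller in size than those between the genotypes. P28 minus P17 was -0.74 in Hdac3-null liver, with -0.50 for the first pools and -0.97 for the second. In control liver it was -0.23, with -0.73 for the first pools and 0.27 for the second, so the control pools gave opposite signs. First pools of the 2 ages belong to different run sets, whereas second pools share 1. Without the first P17 control pool the mean in control liver was 0.19. Of all probes, 9.96% were as low as Dio1 or lower in Hdac3-null liver and 34.0% in control liver. These age differences share the P28 pools by which Dio1 was chosen and are given without a test.

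The genotype effect on Dio1 at P28 minus that at P17 was -0.51. It was 0.054 without the second P28 Hdac3-null pool and -1.07 without the first, so its sign rested on the second pool. That pool had the lowest Dio1 of all 8 at 14.10. The scanner export attached to its sample looks like a copy of that of the P28 first pools. Its values in the value table share the distribution of the second pools. Values here are those of the table, and this mismatch was not resolved. In its run set the second P28 control pool was at 16.49, the highest of the second pools, and the P17 pools of the set at 15.07 for Hdac3-null and 16.22 for control liver. A larger effect at P28 than at P17 was therefore seen in 1 of 2 pool comparisons.

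Other genes of thyroid hormone action and selenoprotein synthesis were looked for by symbol, from lists of 77 genes that held deiodinases, receptors, corepressors, coactivators, transporters, conjugating enzymes, hepatic targets and selenoproteins. Only 3 of the 77 were matched to a probe: Dio1, G6pc and Fgf21. All 3 belong to the 19 hepatic genes listed as raised by thyroid hormone. The other deiodinases, the receptors, HDAC3 and its corepressors, and the other selenoproteins were not analysed here. Of the other 2 members, 0 were called at P17 and 0 at P28 (limma, 8 pools, adjusted p under 0.05), against 0.0454% and 0.397% of all probes. At an unadjusted p under 0.05, G6pc passed at both ages and Fgf21 at P28, beside 1500 of 33010 probes at P17 and 3076 at P28.

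G6pc encodes the catalytic subunit of glucose-6-phosphatase, which releases free glucose from hepatocytes. At P17 it was 17.41 and 17.78 log2 units in the Hdac3-null pools and 18.68 and 18.70 in the control pools. Both P17 Hdac3-null pools were below both control pools, as for Dio1, and the difference was -1.10 (SE 0.35, limma adjusted p = 0.841). The arrays had the same order, as for 8.61% of 31594 probes. At P28 G6pc was 16.89 and 16.81 in the Hdac3-null pools, against 16.19 and 15.71 in the control pools. The difference was 0.89 (SE 0.35, limma adjusted p = 0.467). The Hdac3-null pools were thus the higher ones at P28, opposite to Dio1. Every P28 Hdac3-null array of G6pc lay above every control array, as for 2913 of 31713 probes. The effect of G6pc differed between ages by 1.99 (SE 0.49, limma adjusted p = 0.691, and 0.417 with the replicate block by pool). Between the ages it was called in control liver, with P28 minus P17 at -2.74 (SE 0.35, limma adjusted p = 0.0382, and 0.0475 with the replicate block), a comparison in which 0.176% of 33010 probes were called. In Hdac3-null liver that difference was -0.75 (adjusted p = 0.773). The call in control liver ended without any 1 of the 8 pools (limma adjusted p = 0.0884 to 0.316) and on the deposited values (adjusted p = 1).

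Fgf21 encodes a hormone that liver secretes in fasting. At P17 its Hdac3-null pools were at 10.50 and 11.49 log2 units and its control pools at 10.49 and 10.07, a difference of 0.71 (SE 0.67, limma adjusted p = 1). At P28 the Hdac3-null pools were at 12.35 and 12.34, against 11.71 and 9.63 in the control pools, a difference of 1.68 (SE 0.67, adjusted p = 0.489). The P17 direction of Fgf21 was not settled: the first pools differed by 0.01 after normalization, by -0.56 and 0.59 on their duplicate arrays, and the second pools by 1.41. By mean difference, G6pc went with Dio1 at P17 and against it at P28, and Fgf21 went against it at P28. Whether their patterns differ from that of Dio1 was not tested. Limma called neither G6pc nor Fgf21 between Hdac3-null and control liver at either age.

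Of 34 marker genes for liver cell types, 3 were matched to a probe. None of the 6 hepatocyte markers was among them, so the labelled tissue was not checked by them here. Krt23, the only measured one of 6 cholangiocyte and progenitor markers, had 13.18 ± 1.29 log2 units in P17 Hdac3-null and 14.39 ± 0.37 in P17 control liver, and 11.16 ± 0.02 in P28 Hdac3-null and 12.07 ± 0.58 in P28 control liver (SD, n = 2 pools). Its differences were -1.21 and -0.91 (limma adjusted p = 1 and 0.755). Lst1, the only measured one of 7 leukocyte markers, had 11.72 ± 0.18 in P17 Hdac3-null and 11.82 ± 0.11 in P17 control liver, and 11.45 ± 0.05 in P28 Hdac3-null and 10.23 ± 0.17 in P28 control liver. It differed by -0.10 at P17 and 1.23 at P28 (limma adjusted p = 1 and 0.233). Hba-a1, an alpha globin of red cells with a near-identical copy and the only measured one of 3 erythroid markers, differed by 0.12 and 0.13 (limma adjusted p = 1 and 0.968). The Lst1 effect at P28 minus that at P17 was 1.32 (limma adjusted p = 0.967). The part of these markers in the difference of Dio1 was not tested.

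The genes whose levels followed Dio1 most closely over the 8 pools were picked by Pearson's r among 15290 probes over the detection level. These values are descriptions: the pools share run sets and a common normalization, and the genotypes differ for many probes. Among 156 probes with a symbol the highest r was that of Zkscan17, a zinc finger protein gene (r = 0.85, rho = 0.88, and r = 0.79 without the 2 pools in which Dio1 was farthest from its median). Lrrk1, a leucine-rich repeat kinase gene, had r = 0.84, rho = 0.67 and r = 0.49 without those pools. H2bc18, a histone H2B gene, had r = 0.78. Trim34a, of the tripartite motif family, had r = 0.78, and 0.39 without those pools. It was over the detection level on all 3 arrays of both control groups, but on 2 of 3 in P17 Hdac3-null and 1 of 3 in P28 Hdac3-null liver, so it passed only through the groups in which it is high. Rnaset2b, a ribonuclease T2 gene, had r = 0.77. H2bc18, Trim34a and Rnaset2b belong to families with near-identical copies, and their values are uncertain for the single gene. Without the 2 pools only 1 of these 5 genes stayed among the 5 with the highest r. None of the 156 reached r = 0.90, which 132 of the 15290 probes did. At so low a share, 156 probes are too few to tell whether those with a symbol differ from the rest.

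Probes without a symbol held the highest r values, but they were far more numerous, and their maximum can be higher by number alone. The highest were mCG123224.1 (r = 0.99), mCG3706.2 (r = 0.98) and mCG122431.1 (r = 0.98), with r of 0.96, 0.93 and 0.96 without the 2 pools. Of these, mCG3706.2 differed by -0.97 at P17 and -1.11 at P28 between Hdac3-null and control liver, the nearest of the 3 to the P17 size of Dio1. Among genes with the opposite pattern, Tmem139, a transmembrane protein gene, had r = -0.98, and -0.97 without the 2 pools. Its pools were at 8.97 and 9.93 log2 units in P17 Hdac3-null and 8.22 and 8.72 in P17 control liver. At P28 they were at 9.70 and 10.62 in Hdac3-null and 8.40 and 8.60 in control liver. Tmem139 was over the detection level on 0 of 3 arrays in each control group, and on 1 of 3 P17 and 3 of 3 P28 Hdac3-null arrays. It passed only through the group in which it is high, and its r rests in part on values under that level. Crip1, which encodes a cysteine-rich LIM domain protein, had r = -0.92, and Lgals1, which encodes galectin-1, r = -0.91. Lgals1 was higher in Hdac3-null liver by 1.61 at P17 and 2.55 at P28, opposite to Dio1 at both ages.

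**Figure D4:**
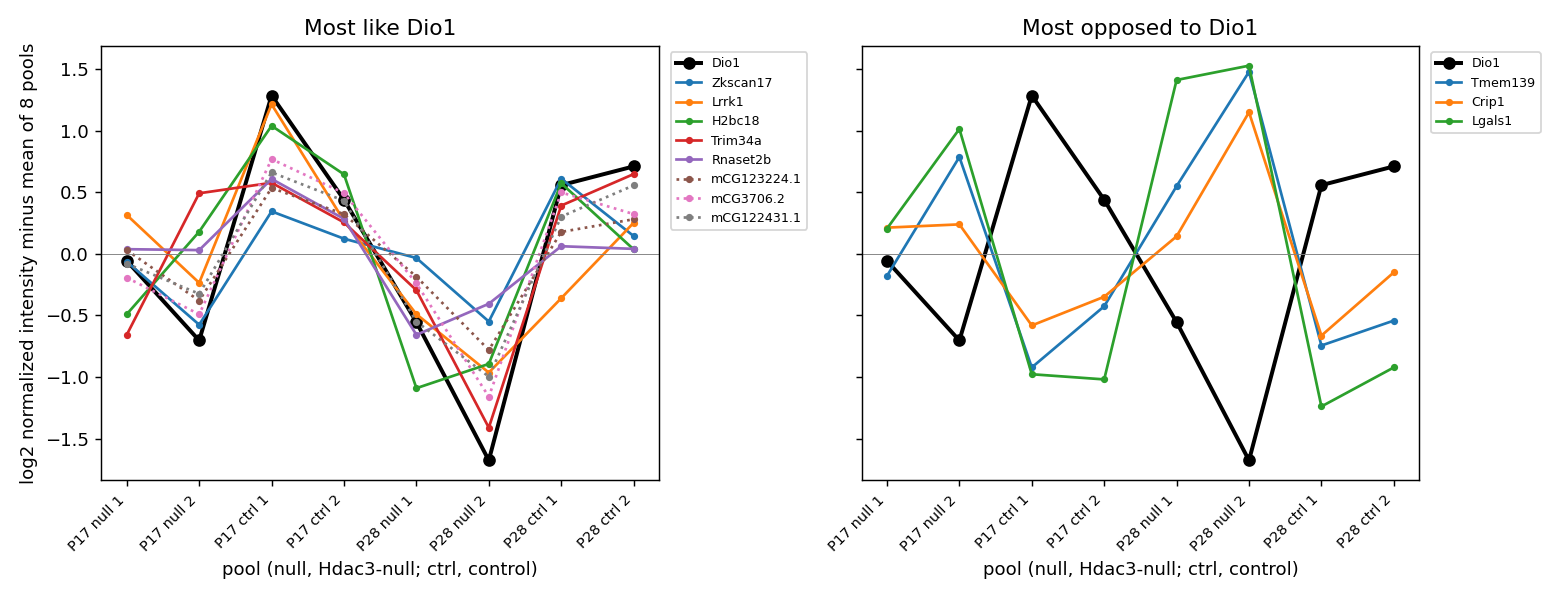
Log2 normalized intensity of each pool minus the mean of the 8 pools, for Dio1 (black) with the genes of the highest r (left, dotted lines for probes without a symbol) and the lowest r (right). The 4 control pools of Dio1 lie above its mean and the 4 Hdac3-null pools below it, and Crip1 and Lgals1 lie below their means in all 4 control pools. Tmem139 was under the detection level on every control array.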

How the data were processed

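Liver RNA of 8 pools was measured on 12 single-colour arrays. The authors deposited 1 linear intensity per probe and array. The labels name no software for these values. Of its cells, 2867 were empty (0.72%). Further deposited scanner exports hold 52 columns of per-sample values that match no sample's label and were not used; from them only the pairing of probes with identifiers was taken. Of 33012 probes, 517 carried a RefSeq transcript, and 311 of these matched exactly 1 symbol in the RefSeq table of GRCm38.p6.

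Quantile normalization was run over the 12 arrays. Values under the 5th percentile (174.7) were set to it, log2 was taken, and the arrays of a pool were averaged. Comparisons used lmFit and eBayes of limma 3.58.1 in R 4.3.3, with Benjamini-Hochberg adjustment over all probes and a threshold of 0.05. The P17 test of Dio1 used the 4 P17 pools (2 residual degrees of freedom, or 1 with the replicate block by pool). The counts over all probes used 8 pools (4 residual degrees of freedom). The scripts were tested on simulated data. The design asked for a detection level from scanner scores; since those columns were not used, its fallback, the median of all normalized values (585.7, or 9.19 on the log2 scale), was used. A probe passed when all arrays of at least 1 group were over it.

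Named were Dio1, all measured members of the gene lists and cell type markers, and by Pearson's r with Dio1 over the 8 pools the 5 highest and 3 lowest probes with a symbol and the 3 highest without. The gene, the lists and the tests were chosen with earlier results of these data known. Pool numbers were checked for pairing: the first-minus-second pool difference had a correlation of 0.48 to 0.60 in the 6 pairs of groups, over 15291 probes. Same-numbered pools share a run set within an age, and a replicate block by pool was fitted beside the main fit. Alternatives were the normalization, the floor, the duplicate array used, the block, the filter, the pools in the fit, the variance model and leaving out each pool.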

Additional observations from a re-analysis of the deposited data

Results flagged for a closer look

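G6pc, a listed hepatic target of thyroid hormone, was lower in both P17 Hdac3-null pools than in the control pools of the same number (-1.27 and -0.93 on the log2 scale) and higher in both P28 Hdac3-null pools (0.69 and 1.10). The effect at P28 minus that at P17 was 1.99 (SE 0.49), and the test of this difference over all probes gave an adjusted p of 0.691 in limma and 0.417 with the replicate block by pool. It came to notice because the pools of the 2 ages had opposite signs, and the test used those same pool values. Such turns were looked for only among Dio1, the other measured list members and the measured markers. Their share over all probes was not counted. Dio1 showed no such turn, with 1 sign in all 4 pool comparisons. With 2 pools and 3 arrays per group, no sample could be screened for standing apart from its group.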

How the results depend on the processing

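Dio1 was lower in Hdac3-null liver under all alternatives run. The P17 difference of -1.24 kept its sign under 13 alternatives, from -1.67 to -0.82, which were the values without the second and without the first P17 control pool, and the adjusted p ran from 0.147 to 1 in limma. The replicate block by pool gave an adjusted p of 0.504, and the lowest, 0.147, came from the replicate block by labelled number on 12 arrays, which counts duplicate arrays as separate samples. The P28 difference of -1.75 kept its sign under 17 alternatives, and leaving out 1 pool gave -2.31 to -1.19. The age difference in Hdac3-null liver (-0.74) gave -1.30 to -0.17 under 17 alternatives. That in control liver (-0.23) gave -0.65 to 0.19 with 1 pool left out, and turned to 0.19 without the first P17 control pool. The effect at P28 minus that at P17 (-0.51) gave -1.07 to 0.054 with 1 pool left out, and turned to 0.054 without the second P28 Hdac3-null pool. The cause of these turns was not tested. Of the 5 named genes most like Dio1, 2 were among the 5 highest by Spearman's rho and 1 by r without 2 pools.

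Counts of called probes moved far more. At P17 the count of 15 became 2 from the deposited values, 7 with normexp, 9 with technical replicate 2 alone, 57 over the detection level, 126 with trend and robust estimation, and 0 on the 4 pools of that age. It became 5 with the replicate block by pool, 392 with the replicate block by labelled number on 12 arrays, 0 with the run set as a block, and 0 to 5 with 1 pool left out. At P28 the count of 131 became 13 from the deposited values, 65 with technical replicate 1 alone, 79 with technical replicate 2 alone, 356 over the detection level, 411 with trend and robust estimation, and 0 on the 4 pools of that age. It became 246 with the replicate block by pool, 1614 with the replicate block by labelled number on 12 arrays, 5 with the run set as a block, and 0 to 28 with 1 pool left out. The other members of the gene lists had 0 calls at both ages under all 20 alternatives. For the G6pc age difference in control liver, 19 alternatives chosen after seeing the data gave -2.98 to -2.50, and 6 of them kept the call. The run set as a block was not run on the 4 P17 pools, where it equals the replicate block by pool. All Dio1 arrays were over the detection level, which is the median of all normalized values and no measure of background. The 2 pools per group limit what its values show.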
